A study of Homo sapiens with 6 samples.

Results

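The short arm of chromosome 3 carries SETD2, the gene that was targeted by short hairpin RNA (shRNA) in these cells, and the arm was examined gene by gene along its length. Its members were selected on position and on expression level: every listed gene on chromosome 3 that starts before 90500000 in hg19 (GRCh37) and has a mean of at least 0.5 FPKM over the 6 libraries. FPKM counts fragments per kilobase of gene, scaled to the mapped fragments of the library. These mean values chose 383 members out of 416 listed genes of the short arm, and out of 15897 genes listed in all. The 33 other short arm genes were under the threshold. RNA of the human lung adenocarcinoma cell line H1650 was sequenced in 6 libraries, 3 labelled control with the genotype wild type and 3 labelled shSETD2. Total RNA had been extracted with TRIzol, made into libraries with a KAPA Stranded kit and read on an Illumina HiSeq. For the knockdown, the study describes lentiviral shRNA in stable lines with 3 constructs, and numbers them 1 to 3 as the labels number the shSETD2 libraries. Neither the labels nor the methods state that each library is the construct of its number, so the 3 may be different constructs or repeats of 1 construct. Nothing says that libraries of a group came from separate cultures, so p-values measure only the spread between these libraries, which may be technical. In RNA from whole cultures, fewer cells of a type and less RNA per cell cannot be told apart.

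SETD2 is the methyltransferase that places the trimethyl mark on lysine 36 of histone H3 over the bodies of transcribed genes, and its protein travels with elongating RNA polymerase II. It lies in a gene-rich band of the short arm with other chromatin regulators, among them PBRM1, a subunit of the PBAF remodelling complex, and BAP1, a deubiquitinase of histone H2A. Loss of short arm segments is frequent in lung and kidney carcinomas, and several genes of the arm, such as VHL, FHIT, RASSF1 and the semaphorins SEMA3B and SEMA3F, have been described as tumour suppressors.

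Many members start in CpG-rich sequence, and the sequences before 5 annotated starts and between 1 pair of starts are shown here because the values below turn on these genes. They were read from GRCh37 at the canonical starts of GENCODE release 44, 5′ to 3′, with each CpG dinucleotide in capitals. The SETD2 sequence (chr3:47205604-47205853, minus strand) holds the 250 bases before its start and has 21 CpGs. It overlaps exons of the antisense non-coding gene KIF9-AS1. The sequence between CHDH and IL17RB (chr3:53880447-53880594, plus strand, 148 bases) separates the starts of neighbours that are transcribed away from each other, and has 19 CpGs. Those of IRAK2 (chr3:10206353-10206602, plus strand) and BHLHE40 (chr3:5020872-5021121, plus strand) stand before genes with higher values in the shSETD2 libraries and have 24 and 16 CpGs. Those of CDC25A (chr3:48229908-48230157, minus strand) and PTH1R (chr3:46918961-46919210, plus strand) stand before genes with lower values and have 11 and 2 CpGs. Apart from that of SETD2, these sequences touched no annotated exon. The annotated starts of IRAK2 and BHLHE40 lie 54 and 321 bases inside their deposited loci. All of the BHLHE40 sequence and the end of the IRAK2 sequence thus fall within the loci measured.
SETD2: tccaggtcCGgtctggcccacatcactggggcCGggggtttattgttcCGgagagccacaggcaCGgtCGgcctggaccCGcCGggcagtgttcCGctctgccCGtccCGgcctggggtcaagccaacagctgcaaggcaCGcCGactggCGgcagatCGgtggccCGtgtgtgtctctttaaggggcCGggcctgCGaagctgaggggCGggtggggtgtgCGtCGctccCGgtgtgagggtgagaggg
CHDH-IL17RB: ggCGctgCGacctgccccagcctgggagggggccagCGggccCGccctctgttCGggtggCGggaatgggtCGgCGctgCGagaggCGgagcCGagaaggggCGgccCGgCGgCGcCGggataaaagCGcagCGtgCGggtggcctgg
IRAK2: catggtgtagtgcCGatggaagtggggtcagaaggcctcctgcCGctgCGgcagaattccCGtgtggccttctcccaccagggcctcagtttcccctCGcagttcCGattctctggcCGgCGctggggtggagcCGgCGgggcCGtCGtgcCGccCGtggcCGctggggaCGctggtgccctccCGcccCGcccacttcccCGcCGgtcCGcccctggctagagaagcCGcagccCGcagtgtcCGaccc
BHLHE40: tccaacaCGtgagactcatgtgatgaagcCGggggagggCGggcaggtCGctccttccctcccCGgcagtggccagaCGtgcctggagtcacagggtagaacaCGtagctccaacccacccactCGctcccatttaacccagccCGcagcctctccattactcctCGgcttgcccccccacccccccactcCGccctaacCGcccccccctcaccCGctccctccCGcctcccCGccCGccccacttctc
CDC25A: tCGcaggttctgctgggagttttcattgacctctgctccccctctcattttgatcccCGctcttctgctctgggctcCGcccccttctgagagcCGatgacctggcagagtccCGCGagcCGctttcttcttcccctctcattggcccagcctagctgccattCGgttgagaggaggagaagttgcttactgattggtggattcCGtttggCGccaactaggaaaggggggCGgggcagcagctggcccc
PTH1R: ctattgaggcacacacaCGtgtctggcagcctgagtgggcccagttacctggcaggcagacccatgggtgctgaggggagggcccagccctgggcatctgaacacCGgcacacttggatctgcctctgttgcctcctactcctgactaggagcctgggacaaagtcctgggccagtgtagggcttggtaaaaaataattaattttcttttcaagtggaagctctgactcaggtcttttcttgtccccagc

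Over the 381 members with a window of 300 bases (250 before the annotated start and 50 from it on), the median was 29 CpGs and a GC content of 67.0%. The 13781 tested genes with such a window had medians of 27 CpGs and 66.0%, and the 368 long arm genes had 26 CpGs and 64.3%. The motif GGGCGG on either strand, part of which can overlap the CpGs counted, was present in 73.0% of the members' windows and in 71.4% of all windows. The short arm was therefore close to the whole set of genes in these features of its starts.

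SETD2 itself (ENSG00000181555, chr3:47057919-47205457, minus strand) was at 18.0, 10.2 and 17.6 FPKM in control libraries 1, 2 and 3 and at 8.97, 8.09 and 12.2 FPKM in shSETD2 libraries 1, 2 and 3, the order kept for all genes below. The shSETD2 mean was lower (9.74 ± 2.15 against 15.3 ± 4.38, SD, n = 3 each), but control library 2 lay below shSETD2 library 3, so the groups overlapped. On the log2(FPKM + 1) scale, used for all differences below, where changes at low FPKM appear smaller, the difference shSETD2 minus control was -0.58 (SE 0.24) and did not pass the threshold (limma, adjusted p = 0.0641 over 14068 genes). Without control library 2 it was -0.83 (adjusted p = 0.00666), and without shSETD2 library 3 it was -0.73 (adjusted p = 0.0420), while with median ratio scaling it was -0.27 (adjusted p = 0.343). Over the 14 alternatives it ran from -0.83 to -0.27, with adjusted p from 0.00666 to 0.343. With the replicate number as a block, -0.58 passed (limma, adjusted p = 0.0156), but the libraries were taken to share only a number. The targeted gene thus separates the groups only in part, and the libraries are called by their labels throughout. Of the 139 members between 46 and 54 Mb, 52 (37.4%) had a lower difference than SETD2, close to the 35.6% of all genes tested.

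Over the members, libraries of 1 group resembled each other and the groups stood far apart. Pearson's r of log2(FPKM + 1) across the 383 members, which are not independent of each other, was 0.969 to 0.985 within groups and 0.709 to 0.726 between groups. The labelled tissue was checked with markers. Of 10 lung epithelium markers, 1 was listed, NKX2-1, a transcription factor of lung and thyroid, at 1.71, 1.80 and 1.44 FPKM in the control libraries and 0 in all 3 shSETD2 libraries. The other 9, mostly surfactant and secretory genes, have no value here, so only NKX2-1, and only in control, spoke for the labelled tissue.

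Epithelial markers moved with the groups: the 8 of 10 listed summed to 16.2, 14.3 and 15.0 FPKM in the control libraries and to 442, 406 and 459 in the shSETD2 libraries, with KRT18 the most abundant. That sum was carried by keratins, while CDH1 (E-cadherin) was at 1.52, 1.43 and 0.860 FPKM in control and 0.0107, 0.0140 and 0.0114 FPKM in shSETD2, and EPCAM at 0.716, 0.830 and 0.582 FPKM and 0.166, 0.301 and 0.193 FPKM. ELF3, an epithelial transcription factor, was higher in shSETD2, at 0.196, 0.262 and 0.204 FPKM and 4.29, 4.06 and 4.34 FPKM, and ESRP1 and CLDN4 lay higher at under 1 FPKM, so CDH1 and EPCAM were the only listed epithelial markers that were lower. The 7 of 10 listed mesenchymal and fibroblast markers, led by VIM, summed to 94.0, 90.2 and 105 FPKM in control and 155, 158 and 166 in shSETD2. Most of that sum was VIM, at 62.3, 60.6 and 76.7 FPKM in control and 131, 129 and 138 in shSETD2, while COL1A1 was at 2.81, 3.01 and 2.53 and 0.283, 0.213 and 0.311 FPKM, ZEB2 at 2.21, 1.84 and 1.92 and 0.576, 0.715 and 0.677 FPKM, and COL3A1 at 0.735, 0.799 and 0.682 and 0, 0.0256 and 0 FPKM. The list thus had no common direction, with a median difference of -0.16 over 5 tested genes. Renal and embryonic kidney markers differed by gene. PAX8, the most abundant of 9 listed out of 10, was at 0.0147, 0.0368 and 0 FPKM in control and 35.2, 28.1 and 29.2 in shSETD2. By contrast, SALL1 was at 7.09, 8.01 and 7.82 FPKM in control and 0 in all 3 shSETD2 libraries, and EMX2 and NEFL were likewise listed at 0 in all 3 shSETD2 libraries. The list summed to 43.95, 38.5 and 44.2 FPKM in control and 71.3, 60.2 and 63.7 in shSETD2. Of 10 leukocyte markers, 2 were listed (CD68 and CD14), summing to 1.33, 1.35 and 1.62 FPKM in control and 1.91, 2.24 and 2.02 in shSETD2, with CD68 the more abundant, and of 8 endothelial markers 0 were listed. The part of these marker differences in the differences of the short arm was not tested. The labels give the same line for both groups, but whether they hold the same cells was not tested, so each difference below is one between the labelled groups and may include a difference between cells.

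Along the arm, differences in both directions were mixed, with more lower than higher values on the arm and over all genes alike. In limma's fit of all 14068 genes with a mean of at least 0.5 FPKM, 84 members were called higher in shSETD2 and 218 lower at an adjusted p under 0.05, and 81 were not called. Of all genes tested, 78.6% were called, 26.8% higher and 51.8% lower, and nothing is read from the members' counts beside these shares. All 3 shSETD2 libraries lay above all 3 control libraries for 92 members and below them for 224, where the shares over all genes were 27.9% and 53%. The median difference of the members was -0.40, with -0.89 and 0.19 as quartiles. Over all genes tested, the median was -0.29, so the members lay -0.11 from it. This offset was -0.0886 with median ratio scaling, -0.16 with quantile normalization and -0.24 among genes with a mean of at least 5 FPKM, and no test was made of it. The median log2(FPKM + 1) of the members per library was 2.67, 2.63 and 2.69 in control and 2.59, 2.56 and 2.55 in shSETD2. That of all genes tested was 2.61, 2.60 and 2.60 in control and 2.42, 2.41 and 2.42 in shSETD2. By these levels the members fell less than all genes, so the sign of the offset depends on the measure. The SD between libraries of a group of members minus all genes, 0.02, belongs to these levels. The median difference of all genes depends on scaling, which shifted it by 0.19 (quantile normalization) or 0.26 (median ratio scaling), and with it the split of calls. With median ratio scaling, 120 members were called higher and 163 lower, that is 42.4% of the calls were higher where it was 27.8% with FPKM as deposited. Over all genes, the same scaling gave 5215 higher and 5505 lower, or 48.6% of calls higher against 34.1% with FPKM as deposited, so the shift was not particular to the arm. Regions and lists are therefore also given relative to the median of all genes.

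**Figure D1:**
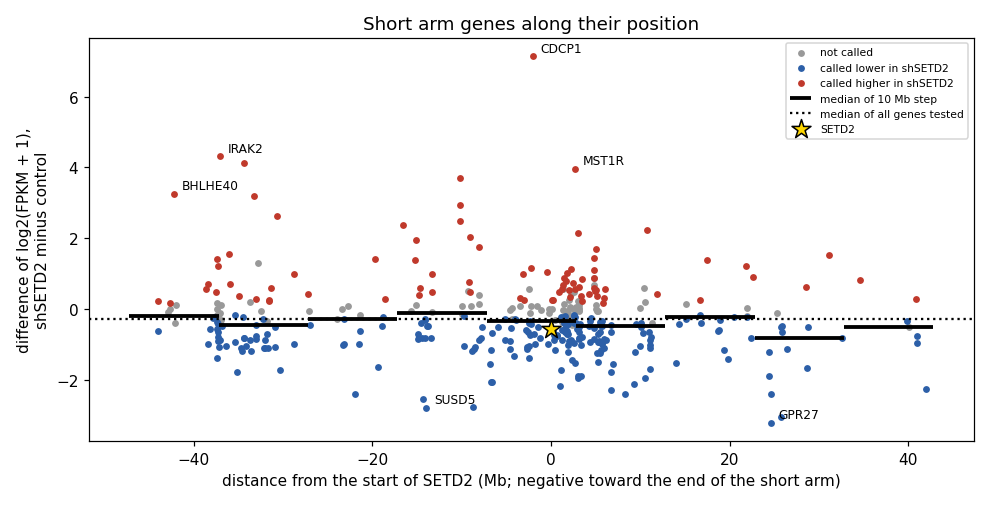
Difference of log2(FPKM + 1), shSETD2 minus control, of the 383 short arm members (vertical axis) against the distance of each gene's start from the start of SETD2 in Mb (horizontal axis); colours show limma's calls, black bars the median of each 10 Mb step, the dotted line the median of all genes tested and the star SETD2. Higher and lower members are interspersed, from CDCP1 at 7.14 to GPR27 at -3.22.

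Steps of 10 Mb showed no single level along the short arm. Relative to the median of all genes, the step from 30 to 40 Mb was highest at 0.18 (44 members) with FPKM as deposited, and that from 70 to 80 Mb lowest at -0.55 (15 members). Both kept their sign relative to the overall median under quantile normalization (0.12 and -0.64) and median ratio scaling (0.21 and -0.50), but with quantile normalization the step from 0 to 10 Mb, at 0.125, was as high as that from 30 to 40 Mb, at 0.123. The steps that hold most members, 40 to 50 Mb with 112 and 50 to 60 Mb with 92, lay at -0.07 and -0.21. SETD2 thus lies in a step near the overall median, and the low step from 70 to 80 Mb rests on few genes, among them GPR27, GXYLT2 and FOXP1.

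The long arm gave a similar median difference. Its 371 tested genes had a median difference of -0.45, which is -0.16 relative to all genes, with 78 called higher and 224 lower. The short arm's median difference exceeded that of the long arm by 0.06, and with quantile normalization this excess was -0.01. The long arm's median log2(FPKM + 1) per library was 2.71, 2.63 and 2.71 in control and 2.30, 2.41 and 2.25 in shSETD2. The short arm's, given above, was close to these in control and higher in every shSETD2 library. The SD between libraries of a group of short minus long arm, 0.06, belongs to these levels. How far the arms differ thus depends on the measure, and no test was made. Among the 23 chromosomes (1 to 22 and X), medians ran from -0.73 on chromosome 13 to 0.40 on chromosome 20, and of the 22 other than chromosome 3, 6 lay below the short arm's and 5 below the long arm's. Within the long arm, the steps from 90 to 170 Mb lay between -0.54 and -0.20 relative to all genes, and the last 3 steps between 0.11 and 0.27.

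**Figure D2:**
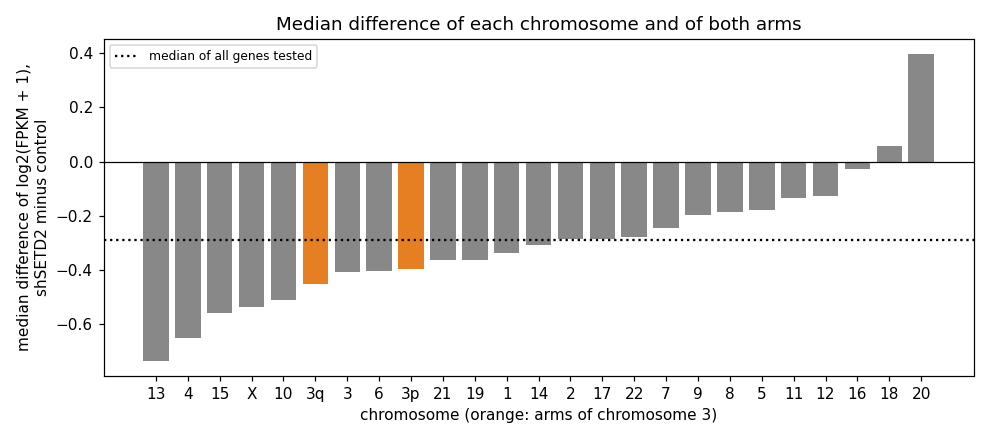
Median difference of log2(FPKM + 1), shSETD2 minus control, of the tested genes of each chromosome (grey bars) and of the arms of chromosome 3 (orange bars), in order of size; the dotted line is the median of all genes tested. Both arms, at -0.40 and -0.45, lie within the range of the other chromosomes.

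As a share of the FPKM of all listed genes, the short arm made up 1.86%, 1.87% and 1.86% in the control libraries and 1.75%, 1.70% and 1.69% in the shSETD2 libraries. All 3 shSETD2 shares lay below the control shares, and the long arm did likewise, at 1.60%, 1.62% and 1.60% in control and 1.47%, 1.53% and 1.45% in shSETD2. The most abundant members behaved differently from each other: RPSA, the laminin receptor of the small ribosomal subunit, was at 209, 204 and 213 FPKM in control and 151, 140.0 and 147 FPKM in shSETD2, a difference of -0.51 (SE 0.04, adjusted p = 2.51e-05). BHLHE40, a repressor of the circadian and hypoxia responses, was the most abundant member in each shSETD2 library, at 229.9, 219 and 232 FPKM against 21.7, 23.9 and 23.2 FPKM in control (3.25, SE 0.05, adjusted p = 3.07e-08). RHOA, a small GTPase of the actin cytoskeleton, was at 151, 149 and 146 FPKM in control and 162, 151 and 146 FPKM in shSETD2, with overlapping groups and no call (difference 0.04, SE 0.04, adjusted p = 0.481). Its direction turned with scaling, as it was called lower with quantile normalization (-0.21, adjusted p = 0.00284) and higher with median ratio scaling (0.37, adjusted p = 2.86e-04).

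Close to SETD2, neighbours differed in either direction or not at all. On the side toward the end of the arm, NBEAL2, needed for platelet granules, was at 6.79, 6.85 and 6.55 FPKM in control and 7.22, 6.18 and 6.61 FPKM in shSETD2 (difference -0.01, SE 0.06, adjusted p = 0.848). CCDC12, a spliceosome protein, was at 3.13, 3.81 and 3.15 FPKM and 3.07, 2.86 and 3.02 FPKM, a difference of -0.13 (SE 0.08, adjusted p = 0.166). Neither was called, and the loci of NBEAL2 and CCDC12 overlap, so reads of one may have been counted for the other. PTH1R, the parathyroid hormone receptor, was at 1.44, 1.07 and 0.611 FPKM in control and 0, 0 and 0.0258 FPKM in shSETD2 (-0.996, SE 0.15, adjusted p = 8.36e-04). ALS2CL was at 0.661, 0.720 and 0.761 FPKM in control and 2.40, 2.44 and 2.69 FPKM in shSETD2 (1.03, SE 0.06, adjusted p = 8.69e-06). Both were called, in opposite directions, at levels of a few FPKM at most. With a mean of 0.524 FPKM, PTH1R passed the threshold through control alone, so the rule itself favours its fall.

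On the side toward the centromere, KIF9, a kinesin, was at 0.599, 0.557 and 0.708 FPKM in control and 0.975, 0.834 and 0.926 FPKM in shSETD2 (0.24, SE 0.06, adjusted p = 0.0130). KLHL18, an adaptor of cullin ubiquitin ligases, was at 6.42, 5.79 and 5.88 FPKM and 6.05, 5.998 and 5.80 FPKM, with no call (difference -0.02, SE 0.05, adjusted p = 0.800). Here the loci overlap too. The non-coding AC104447.1 was at 3.34, 2.69 and 2.47 FPKM in control and 1.80, 1.34 and 1.29 FPKM in shSETD2 (-0.63, SE 0.12, adjusted p = 0.00258), and PTPN23, a phosphatase-like protein of endosomal sorting, was at 9.76, 9.28 and 9.51 FPKM and 12.6, 10.5 and 11.9 FPKM (0.26, SE 0.07, adjusted p = 0.0130). Of these 8 nearest members, 3 were called higher, 2 lower and 3 not at all (26.8% higher and 51.8% lower over all genes). The lower calls include PTH1R, whose fall the rule favours. With median ratio scaling, NBEAL2 (0.28, adjusted p = 0.00698) and KLHL18 (0.27, adjusted p = 0.00348) changed sign and were called higher. The call of AC104447.1 was lost with quantile normalization (adjusted p = 0.0696, in a range of 8.43e-04 to 0.0696 over the alternatives).

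**Figure D3:**
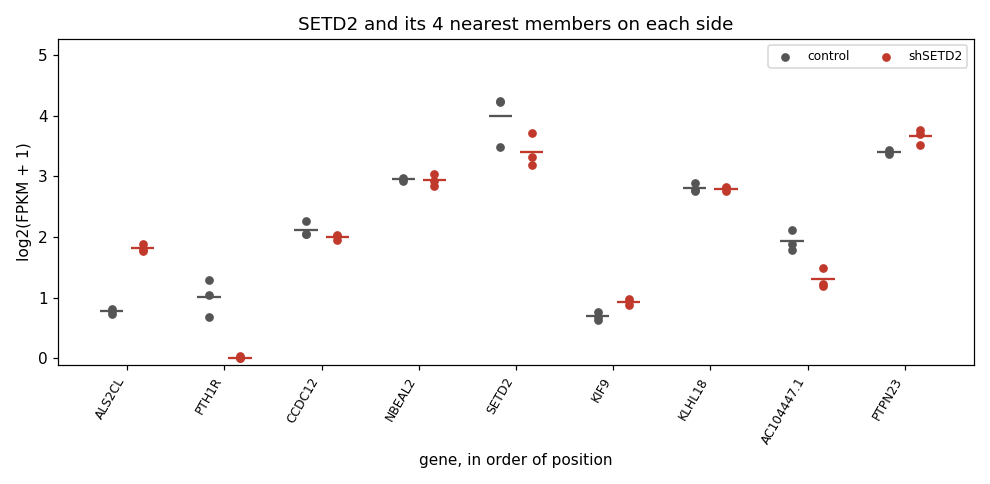
Values of log2(FPKM + 1) (vertical axis) of SETD2 and its 4 nearest members on each side, in order of position (horizontal axis), with 1 point per library and a bar at each group mean, control in grey and shSETD2 in red. SETD2 overlaps between groups, and NBEAL2 and KLHL18 differ by -0.01 and -0.02.

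In the wider window from 46 to 54 Mb, 139 of 147 listed genes were members. Their median difference was -0.35, or -0.06 relative to all genes, and 32 were called higher (23.02%) and 73 lower (52.5%), where the shares over all genes were 26.8% and 51.8%. The 53 members that start within 2 Mb of SETD2 had a median of -0.40, and the 244 members outside the window one of -0.41. Differences above 1 were found for 8 window members (5.76%) and below -1 for 18 (12.9%), where the shares over all genes were 11.2% and 18.8%. The window was thus not set apart from the arm by its median.

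The largest falls in the window with groups that do not overlap were CHDH, CDC25A, SLC38A3, CACNA2D2 and SEMA3F. CDC25A, the phosphatase that activates cyclin-dependent kinases, was at 43.0, 43.4 and 42.4 FPKM in control and 8.51, 8.75 and 8.59 FPKM in shSETD2, 4.98-fold lower in linear FPKM (-2.19, SE 0.04, adjusted p = 4.72e-08). It was the only one of these that kept a sizeable level in shSETD2. SLC38A3, a glutamine transporter, was at 2.64, 2.83 and 3.23 FPKM in control and listed at 0 in all 3 shSETD2 libraries (adjusted p = 9.76e-07), and CACNA2D2, an auxiliary calcium channel subunit, was at 2.63, 3.10 and 3.07 FPKM and 0.0611, 0.0336 and 0.0474 FPKM (-1.91, SE 0.07, adjusted p = 9.27e-07). SEMA3F, a secreted guidance factor, was at 4.32, 4.25 and 3.99 FPKM in control and 0.514, 0.312 and 0.351 FPKM in shSETD2 (-1.90, SE 0.07, adjusted p = 1.37e-06). SEMA3F and SLC38A3 are next to each other in the table, and groups that do not overlap were a condition for naming either gene here.

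The largest rises in the window, again among members with groups that do not overlap, were MST1R, GNAI2, TWF2, PARP3 and ABHD14B. MST1R, the receptor tyrosine kinase RON, was at 0.132, 0.232 and 0.235 FPKM in control and 17.4, 19.2 and 16.8 FPKM in shSETD2 (3.97, SE 0.07, adjusted p = 6.39e-08). GNAI2, an inhibitory G protein subunit, was at 6.43, 6.85 and 6.97 FPKM and 33.6, 32.1 and 34.3 FPKM, 4.94-fold higher (2.15, SE 0.05, adjusted p = 1.46e-07). TWF2, a twinfilin that binds actin, was at 14.9, 15.6 and 15.2 FPKM in control and 52.6, 49.6 and 50.6 FPKM in shSETD2 (1.68, SE 0.04, adjusted p = 1.78e-07). In each of these, all shSETD2 libraries lay above all control libraries, which was a condition of the choice. ABHD14B was at 3.59, 4.31 and 7.95 FPKM in control and 14.1, 14.5 and 8.22 FPKM in shSETD2 (1.10, SE 0.31, adjusted p = 0.0151), its locus overlaps 4 other listed genes, and its call was lost when control library 1 or 2 or shSETD2 library 1 or 2 was left out (adjusted p = 0.05003, 0.0530, 0.0510 and 0.0551, in a range of 0.00436 to 0.0551 over the alternatives).

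Neighbours whose loci in the table begin within 1 kb of each other and are transcribed apart formed 12 pairs on the short arm, 4 of them in the window. CHDH, the mitochondrial choline dehydrogenase, was at 3.95, 4.03 and 3.72 FPKM in control, and IL17RB, a receptor of interleukin 25, was at 2.85, 2.46 and 2.09 FPKM, and each was listed at 0 in all 3 shSETD2 libraries (adjusted p = 1.65e-07 and 3.99e-06). The starts of their loci lie 190 bases apart, around the CpG-rich sequence printed above, and both genes fell together. The loci of BAP1 and PHF7 begin 307 bases apart, and only PHF7 was called: BAP1 was at 14.2, 15.8 and 17.5 FPKM in control and 15.1, 15.3 and 15.1 FPKM in shSETD2 (difference -0.05, SE 0.07, adjusted p = 0.534). PHF7, a reader of histone marks active in the male germ line, was at 4.61, 4.67 and 5.53 FPKM and 1.09, 1.04 and 1.07 FPKM (-1.52, SE 0.07, adjusted p = 3.87e-06). With median ratio scaling BAP1 turned to 0.26 and was called higher (adjusted p = 0.0171). RRP9, a factor of small nucleolar RNA, was at 13.7, 13.6 and 11.4 FPKM in control and 19.7, 19.8 and 20.2 FPKM in shSETD2 (0.59, SE 0.08, adjusted p = 3.74e-04), and its neighbour PARP3, an ADP-ribosyltransferase, was at 1.75, 1.81 and 1.72 FPKM and 6.82, 5.72 and 6.74 FPKM (1.42, SE 0.07, adjusted p = 4.81e-06).

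In the last window pair, PCBP4, an RNA-binding protein, was at 2.97, 3.35 and 3.45 FPKM in control and 6.31, 6.33 and 7.67 FPKM in shSETD2 (0.87, SE 0.09, adjusted p = 1.26e-04). Its neighbour ABHD14A-ACY1, a readthrough gene that overlaps others, was at 0.473, 0.361 and 0.0102 FPKM in control and 0.0334, 2.33 and 2.52 FPKM in shSETD2, with 1 shSETD2 library among the control values and no call (difference 0.86, SE 0.48, adjusted p = 0.145). It was called without shSETD2 library 1 (adjusted p = 8.52e-04) and with quantile normalization, and the adjusted p ran from 8.52e-04 to 0.380 over the alternatives. The annotated starts of PCBP4 and ABHD14A-ACY1 lie 7606 bases apart, so their pairing holds for the loci only. Of the 12 pairs, 5 had both genes called the same way and 2 opposite ways, beside 304 and 91 of the 685 such pairs among all tested genes. Differences had the same sign in 8, which counts uncalled genes such as BAP1, and of the pairs among all tested genes 66.1% did. For the 382 pairs of members next to each other, whatever their strand, the share was 60.5%, against 62.6% of 14040 in the whole table. Neighbouring members thus shared a direction about as often as neighbours elsewhere, and no test was made.

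Among short arm tumour suppressor genes, 19 of 20 were measured, with 11 called lower, 2 higher and 6 not called (51.8% lower and 26.8% higher over all genes), and a median difference of -0.65 (-0.36 relative to all genes). VHL, the substrate receptor for hypoxia-inducible factors, was at 22.1, 20.8 and 24.2 FPKM in control and 12.6, 10.9 and 11.5 FPKM in shSETD2 (-0.89, SE 0.07, adjusted p = 4.81e-05). PBRM1 was at 14.8, 16.04 and 15.4 FPKM and 8.92, 10.3 and 9.26 FPKM (-0.65, SE 0.06, adjusted p = 1.05e-04). FHIT, a dinucleoside hydrolase at a fragile site, was at 2.28, 2.15 and 2.51 FPKM in control and 0.116, 0.198 and 0.115 FPKM in shSETD2 (-1.54, SE 0.07, adjusted p = 2.31e-06). In these, every shSETD2 library lay below every control library. FOXP1, a forkhead repressor, was at 4.89, 5.06 and 4.90 FPKM in control and 0.503, 0.745 and 0.542 FPKM in shSETD2 (-1.90, SE 0.07, adjusted p = 1.26e-06), and RARB, a retinoic acid receptor, was at 5.21, 4.25 and 3.71 FPKM in control and listed at 0 in all 3 shSETD2 libraries (adjusted p = 2.24e-06). RASSF1 was at 4.88, 4.78 and 5.05 FPKM and 4.67, 4.89 and 4.57 FPKM, with overlapping groups and no call (difference -0.05, SE 0.05, adjusted p = 0.409).

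TGFBR2, the type II receptor of transforming growth factor beta, was at 3.92, 4.01 and 3.48 FPKM in control and 23.3, 23.8 and 24.0 FPKM in shSETD2, 6.22-fold higher (2.36, SE 0.06, adjusted p = 1.78e-07). All 3 shSETD2 libraries of TGFBR2 lay far above all 3 control libraries. SETD2 is itself on the list, and DLEC1 is not among the listed genes. The list's median lay below that of all genes under quantile normalization and median ratio scaling too (-0.48 and -0.31). It is a description only, as the list was chosen with earlier results of these data known. With either scaling, 5 of the list were called higher and 11 lower. Over all genes, these counts were 4613 and 5953 with quantile normalization and 5215 and 5505 with median ratio scaling.

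**Figure D4:**
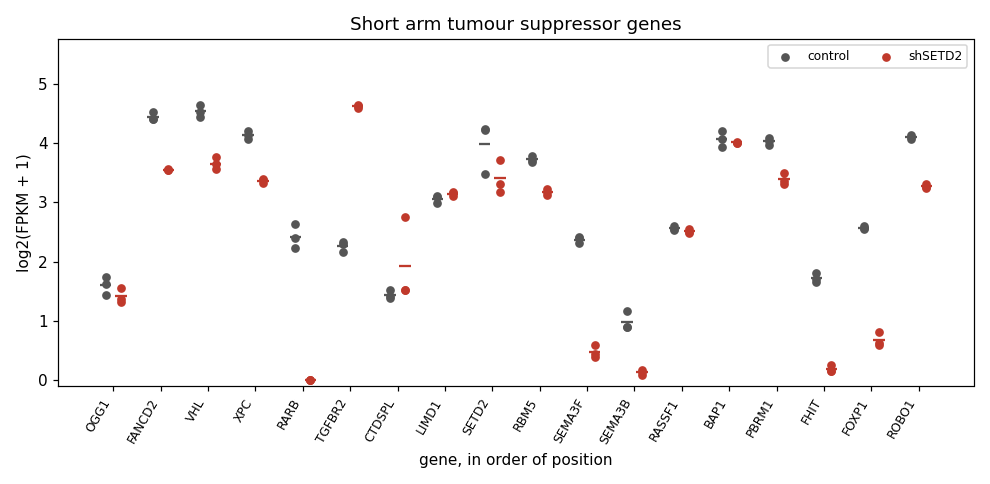
Values of log2(FPKM + 1) (vertical axis) of short arm tumour suppressor genes in order of position (horizontal axis), 1 point per library and a bar at each group mean, control in grey and shSETD2 in red. RARB is at 0 in all 3 shSETD2 libraries, TGFBR2 is higher in shSETD2, and RASSF1, BAP1 and LIMD1 are not called with FPKM as deposited.

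Of 15 chromatin genes of the short arm, 7 were called lower, 1 higher and 7 not called (51.8% lower and 26.8% higher over all genes), with a median difference of -0.22 (0.07 relative to all genes). The median turned to 0.10 with median ratio scaling, where 5 were called higher and 6 lower (5215 and 5505 over all genes). With quantile normalization 3 were called higher and 7 lower (4613 and 5953 over all genes). The list's median then lay -0.25 from that of all genes. SMARCC1, a core subunit of SWI/SNF complexes close to SETD2, was the most abundant at 55.8, 56.5 and 56.4 FPKM in control and 31.9, 33.0 and 32.8 FPKM in shSETD2 (-0.77, SE 0.03, adjusted p = 1.97e-06). SATB1, an organiser of chromatin loops, was at 2.02, 2.32 and 2.31 FPKM and 0.621, 0.577 and 0.686 FPKM (-0.98, SE 0.06, adjusted p = 1.49e-05). BRPF1, a scaffold of histone acetyltransferases, was at 11.1, 9.87 and 9.96 FPKM in control and 6.73, 6.65 and 6.51 FPKM in shSETD2 (-0.56, SE 0.06, adjusted p = 1.15e-04). The falls of SMARCC1, SATB1 and BRPF1 kept their sign and call with either scaling, while the list as a whole had no direction that held with both.

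The cluster at 3p21.3, a stretch of genes often deleted together in lung tumours, had 17 of 20 genes listed and 16 tested, of which 9 were called lower, 2 higher and 5 not at all, beside 51.8% lower and 26.8% higher over all genes. Its median difference was -0.42 (-0.13 relative to all genes). Besides SEMA3F, SLC38A3, CACNA2D2 and GNAI2 above, SEMA3B was at 0.852, 1.25 and 0.858 FPKM in control and 0.0645, 0.103 and 0.123 FPKM in shSETD2 (-0.85, SE 0.09, adjusted p = 1.58e-04). RBM5, a splicing regulator, was at 12.2, 11.9 and 12.8 FPKM and 8.37, 7.70 and 7.99 FPKM (-0.56, SE 0.05, adjusted p = 7.73e-05). HYAL3, a hyaluronidase-like gene whose locus overlaps others, was at 1.10, 1.04 and 1.40 FPKM in control and 2.59, 1.92 and 2.55 FPKM in shSETD2 (0.62, SE 0.11, adjusted p = 0.00187). The cluster thus held calls of both directions, as the whole set of genes did. With quantile normalization 4 of the cluster were called higher and 8 lower (4613 and 5953 over all genes). With median ratio scaling 4 were called higher and 6 lower (5215 and 5505 over all genes). RASSF1, not called with FPKM as deposited, was called higher with quantile normalization (0.13, adjusted p = 0.0465) and with median ratio scaling (0.23, adjusted p = 0.00529).

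Of 9 DNA repair genes of the arm tested out of 10, 5 were called lower, 1 higher and 3 not called, beside 51.8% and 26.8% of all genes called lower and higher, with a median of -0.58 (-0.29 relative to all genes). FANCD2, of interstrand crosslink repair, was at 22.1, 20.2 and 20.3 FPKM in control and 10.8, 10.7 and 10.7 FPKM in shSETD2 (-0.90, SE 0.05, adjusted p = 5.85e-06). XPC, a damage sensor of nucleotide excision repair, was at 16.7, 15.9 and 17.4 FPKM and 9.50, 9.35 and 9.08 FPKM (-0.78, SE 0.05, adjusted p = 1.18e-05). NEK4, a kinase of the damage response, was at 15.9, 16.1 and 15.9 FPKM in control and 6.19, 7.003 and 6.46 FPKM in shSETD2 (-1.17, SE 0.05, adjusted p = 2.64e-06). In these genes the groups did not overlap. All 5 ribosomal protein genes were called lower, with a median of -0.85 (-0.56 relative to all genes) and a sum of 614, 599 and 616 FPKM in control against 364, 339.6 and 367 FPKM in shSETD2, and all 5 were also called lower with quantile normalization and with median ratio scaling. RPL14, of the large subunit, was at 36.96, 40.8 and 36.4 FPKM in control and 16.6, 16.8 and 16.2 FPKM in shSETD2 (-1.15, SE 0.05, adjusted p = 2.94e-06). Near-identical processed copies of ribosomal protein genes exist elsewhere in the genome, so these values are uncertain. None of the 12 chemokine receptor genes of the arm was listed (0 of 12), and they are not discussed further.

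Of 14 adhesion and guidance genes listed and tested out of 18, 5 were called higher, 8 lower and 1 not called (26.8% higher and 51.8% lower over all genes), and the median difference was -0.56 (-0.27 relative to all genes). LAMB2, a laminin chain, was at 14.5, 14.1 and 14.1 FPKM in control and 22.2, 20.1 and 20.8 FPKM in shSETD2 (0.53, SE 0.05, adjusted p = 6.95e-05). ROBO1, a receptor of SLIT guidance factors, was at 15.7, 16.7 and 16.3 FPKM in control and 8.52, 8.57 and 8.88 FPKM in shSETD2 (-0.84, SE 0.04, adjusted p = 5.03e-06). A matrix gene thus rose beside a falling guidance receptor and falling semaphorins. ITGA9, an integrin chain, was at 0.989, 1.09 and 1.15 FPKM in control and 0, 0 and 0.00404 FPKM in shSETD2 (-1.05, SE 0.06, adjusted p = 5.57e-06).

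Of 20 signalling genes, 11 were called higher, 5 lower and 4 not called (26.8% higher and 51.8% lower over all genes), with a median difference of 0.34 (0.63 relative to all genes). The list's median stayed above that of all genes with quantile normalization (0.62) and median ratio scaling (0.67). As the list was chosen with earlier results of these data known, its median is a description only. Among Wnt genes, WNT5A was at 5.27, 4.998 and 5.53 FPKM in control and 0.169, 0.210 and 0.173 FPKM in shSETD2 (-2.40, SE 0.06, adjusted p = 1.82e-07). WNT7A, listed at 0 in all 3 control libraries, reached 8.43, 7.60 and 8.22 FPKM in shSETD2 (adjusted p = 6.50e-08). CTNNB1, which encodes beta-catenin, was at 41.0, 39.5 and 40.9 FPKM and 27.5, 28.0 and 28.0 FPKM (-0.52, SE 0.03, adjusted p = 1.49e-05). These ligands thus went in opposite directions, and beta-catenin fell by a smaller amount. Of the innate immune adaptors, IRAK2, a kinase of interleukin 1 and Toll-like receptor signalling, was at 1.81, 2.35 and 1.68 FPKM in control and 58.0, 56.7 and 57.3 FPKM in shSETD2, 29.4-fold higher (4.31, SE 0.09, adjusted p = 9.43e-08). MYD88, the adaptor upstream of it, was at 0.579, 1.23 and 0.973 FPKM and 9.08, 8.39 and 3.89 FPKM (2.02, SE 0.29, adjusted p = 7.55e-04). Both lay above control in 3 of 3 shSETD2 libraries, with MYD88 lower in shSETD2 library 3 than in libraries 1 and 2. MAPKAPK3, a kinase downstream of p38, was at 10.6, 11.9 and 10.3 FPKM in control and 21.0, 18.9 and 21.1 FPKM in shSETD2 (0.84, SE 0.07, adjusted p = 5.08e-05), and MITF, a transcription factor of melanocytes and other cells, was at 3.20, 2.12 and 2.21 FPKM and 5.50, 5.63 and 5.29 FPKM (0.89, SE 0.12, adjusted p = 4.95e-04).

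**Figure D5:**
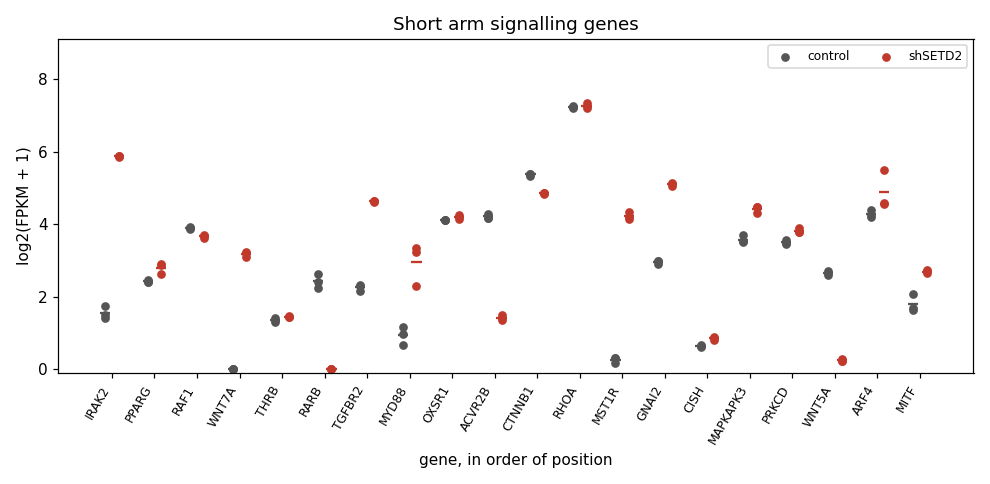
Values of log2(FPKM + 1) (vertical axis) of the 20 short arm signalling genes in order of position (horizontal axis), 1 point per library and a bar at each group mean, control in grey and shSETD2 in red. IRAK2, WNT7A, TGFBR2, MYD88, GNAI2 and MST1R are higher in shSETD2, RARB, ACVR2B and WNT5A lower, and RHOA overlaps between groups.

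Over the whole arm, the largest rises with groups that do not overlap included CDCP1, IRAK2, TMEM40, MST1R and BHLHE40. CDCP1, a transmembrane substrate of Src kinases, had the largest: it was at 0.0796, 0.0261 and 0.0443 FPKM in control and 149, 144 and 149.7 FPKM in shSETD2 (7.14, SE 0.04, adjusted p = 2.16e-09). TMEM40, at 0 in all 3 control libraries, reached 16.9, 17.0 and 15.5 FPKM in shSETD2 (adjusted p = 2.89e-08). Of these genes, CDCP1 (annotated start 45187870) and MST1R (49941306) lie in the 10 Mb step that holds SETD2. IRAK2 (10206603), TMEM40 (12800758) and BHLHE40 (5021122) lie nearer the end of the arm. The largest falls were GPR27, GXYLT2, SUSD5, ACVR2B, TRIM71 and RARB. GPR27, an orphan receptor, was at 8.42, 8.11 and 8.40 FPKM in control and listed at 0 in all 3 shSETD2 libraries (adjusted p = 4.06e-08). GXYLT2, a xylosyltransferase that acts on Notch, was at 7.55, 9.22 and 9.24 FPKM and 0.149, 0.184 and 0.158 FPKM (-3.05, SE 0.08, adjusted p = 3.31e-07). ACVR2B, an activin receptor, was at 17.1, 18.4 and 17.1 FPKM in control and 1.84, 1.64 and 1.57 FPKM in shSETD2, 10.4-fold lower (-2.79, SE 0.06, adjusted p = 1.25e-07). Most of these falls ended near 0, and ACVR2B kept a low level. SUSD5 was at 6.01, 6.37 and 5.98 FPKM in control and 0.0263, 0.0116 and 0.0280 FPKM in shSETD2 (-2.80, SE 0.05, adjusted p = 7.48e-08), and TRIM71, an RNA-binding ubiquitin ligase of stem cells, was at 5.12, 5.22 and 4.78 FPKM and 0.0452, 0.0121 and 0.0408 FPKM (-2.55, SE 0.06, adjusted p = 1.33e-07).

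A set of members was expressed in 1 group only. With a group mean under 0.1 FPKM and the other group at 1 FPKM or more, 26 members (6.79%) were near 0 in shSETD2 and 11 (2.87%) near 0 in control, where the shares over all genes were 5.64% and 2.49%. In the window from 46 to 54 Mb these counts were 8 and 1, the latter being P4HTM, which is named after its values were seen. Of all members, 14 were listed at 0 in all shSETD2 libraries and 4 in all control libraries. The threshold on the mean was passed through the control group alone by 50 members and through the shSETD2 group alone by 17, so the rule itself favours a difference in these.

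The starts of these members varied in CpG content. The median per 300-base window was 27.5 CpGs for members near 0 in shSETD2, with quartiles of 8.75 and 39. For members near 0 in control, it was 21, and for the 287 members with a window and at 1 FPKM or more in both groups it was 30, with quartiles of 23 and 35. Members near 0 in shSETD2 thus ranged from CpG-poor starts such as that of PTH1R to CpG-rich ones such as that of CHDH. Over all genes tested, the same medians were 25, 10 and 28. The motif GGGCGG was found in 13 of 26 windows near 0 in shSETD2 (50%), in 8 of 11 near 0 in control (72.7%) and in 77.4% of those expressed in both. Over all genes tested these shares were 69.1%, 43.8% and 76.3%, so the order of the first classes was the opposite. No test was made of these features, and nothing about a bound factor follows from a match.

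Within groups, most members were steady and a few were not. Among the 193 members with a mean of at least 5 FPKM, the highest library of a group exceeded the lowest by a median factor of 1.10 in control and 1.13 in shSETD2. For 13 of them (6.74%) the factor was above 2 in a group, against 4.32% of all 7078 such genes. DAG1, dystroglycan, which links the matrix to the cytoskeleton, was the widest, at 21.5, 1.30 and 21.34 FPKM in control and 31.1, 3.61 and 1.96 FPKM in shSETD2 (difference -0.47, SE 1.22, adjusted p = 0.738). Its libraries fell into high and low values within each group, and its sign turned when single libraries were left out. The loci of 168 members overlap another listed gene, and the use of strand in counting is not given in the sources used here, so the values of such members are uncertain.

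At the limits of the rule, the members with the lowest mean were CAV3, caveolin of muscle, at 0.506 FPKM and PTH1R at 0.524 FPKM, and the genes just under the threshold were SRGAP3 at 0.488 FPKM and NEK10 at 0.485 FPKM. Toward the centromere, the last member was EPHA3, an ephrin receptor that starts at 89156674, with 4.75, 4.68 and 4.82 FPKM in control and 0.0835, 0.298 and 0.185 FPKM in shSETD2. The next tested gene, PROS1, starts at 93591877 on the long arm and had 5.77, 6.41 and 6.07 FPKM in control and 5.21, 5.45 and 5.31 FPKM in shSETD2.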

How the data were processed

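Gene values were FPKM as deposited by the authors, 1 table of 15897 genes in 6 libraries. The submitters' processing notes name HISAT2 and hg19, the methods of the study name Ballgown, and their versions are not given in the sources used here. A second deposited table holds the authors' own comparison (fold changes, p and q values) and was not used. Counts were not analysed here, so library depth is unknown.

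FPKM were taken to log2 with a pseudocount of 1. Genes with a mean of at least 0.5 FPKM (14068) were fitted with limma 3.58.1 (R 4.3.3), control against shSETD2 with an intensity trend, and p-values were adjusted over all of them by Benjamini-Hochberg. A gene was called at an adjusted p under 0.05. The code was tried on simulated data first. Medians of arms, steps, windows and lists are descriptions without a test. Genes were named from lists (short arm tumour suppressors, chromatin, 3p21.3 cluster, DNA repair, ribosomal proteins, chemokine receptors, adhesion and guidance, signalling, tissue markers), as the 4 nearest members on each side of SETD2, as the largest falls and rises of the window (5 each) and of the arm (6 each), as the most abundant members, as pairs of loci that begin within 1 kb in the window, and at the limits of the rule. Each list is given by its counts and median, with examples picked with their values in view. Members and lists were chosen with earlier results of these data known. P4HTM and DAG1's spread were picked out after their values were seen. Some genes that these rules name are not reported here.

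Start sequences were read from GRCh37 at canonical GENCODE 44 starts placed on that build, and windows hold 250 bases before and 50 from the start on. Alternatives were pseudocounts of 0.1 and 0.01, other limits on the mean, quantile normalization and median ratio scaling. Further ones were no trend, the replicate number as a block, and each library left out. Tables were handled in pandas 2.3.3 and numpy 2.4.6 under Python 3.11.15, and plots were drawn with matplotlib 3.10.9.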

Additional observations from a re-analysis of the deposited data

How the results depend on the processing

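Lower calls outnumbered higher ones under every setting, on the short arm and over all genes alike, while medians moved with scaling. The median difference of the short arm was -0.48 and -0.48 with pseudocounts of 0.1 and 0.01, -0.26 with quantile normalization and -0.12 with median ratio scaling. In the same order it was -0.44, -0.44, -0.19 and -0.10 for 46 to 54 Mb, -0.54, -0.55, -0.25 and -0.18 for the long arm, and -0.36, -0.37, -0.10 and -0.0289 for all genes. The short arm minus all genes was -0.16 with quantile normalization and -0.0886 with median ratio scaling, and the short arm minus the long arm turned to -0.0144 with quantile normalization. The cause was not tested.

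With a mean of at least 5 FPKM, 5647 genes were called, 40 higher and 109 lower on the short arm and 20 and 39 from 46 to 54 Mb, as fewer genes were tested. Of the calls, 26.8% on the short arm and 42.5% over all genes were then higher, against 27.8% and 34.1% with a mean of at least 0.5 FPKM. The median was then -0.38 for the long arm and -0.14 for all genes, and the short arm lay -0.24 from all genes. Near 0 taken as under 0.5 FPKM gave a median of 25.5 CpGs for members near 0 in shSETD2 and 21.5 for those near 0 in control.

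Leaving out single libraries gave 10519 to 10801 calls in all, 77 to 87 higher and 203 to 212 lower on the short arm, and 29 to 33 and 65 to 71 from 46 to 54 Mb. Medians ran from -0.40 to -0.38 on the short arm, -0.48 to -0.43 on the long arm and -0.40 to -0.30 from 46 to 54 Mb, and the short arm minus the long arm from 0.0392 to 0.0945 and minus all genes from -0.11 to -0.0894. SETD2, at -0.27 with median ratio scaling, ran from -0.83 to -0.45 and was called without control library 2 (-0.83) and without shSETD2 library 3 (-0.73).

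Uncalled named genes near 0 difference changed sign. With quantile normalization CCDC12 was 0.16, NBEAL2 0.11, KLHL18 0.13, RHOA -0.21 and RASSF1 0.13. With median ratio scaling CCDC12 was 0.13, NBEAL2 0.28, KLHL18 0.27, BAP1 0.26 and RASSF1 0.23. RHOA, RASSF1 and LIMD1 were called with quantile normalization (limma, adjusted p = 0.00284, 0.0465 and 0.0125, 3 libraries per group), and NBEAL2, KLHL18, BAP1, RASSF1, RHOA and LIMD1 higher with median ratio scaling (0.00698, 0.00348, 0.0171, 0.00529, 2.86e-04 and 4.62e-04). With a library left out, NBEAL2 ran from -0.0648 to 0.0325, KLHL18 from -0.0401 to 0.0237, RHOA from -0.00655 to 0.0694 and BAP1 from -0.12 to 0.0179. DAG1 ran from -1.56 to 0.21, and was 0.0835 without control 1 and 0.0774 without control 3.

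With the replicate number as a block (replicate block), 10976 genes were called, and SETD2 at -0.58 passed (adjusted p = 0.0156). Deviations from the group means of libraries with the same number had correlations of -0.0237, 0.0177 and -0.00766, not each sample correlated best with its own number, and the libraries were taken to share only a number. Library depth cannot be told from FPKM: between libraries 1 and 2, the commonest ratio of low values held for 1.24% of them in control and 1.02% in shSETD2. RNA per cell was not measured, so FPKM give shares of each library and not amounts per cell.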
